A study of Caenorhabditis elegans with 2 samples.

Results

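The regions described are the CTBP-1 peaks on the autosomes whose summit, the base of highest signal within a peak, lay in an intron. The peaks were taken from the authors' series-level list, thresholded by irreproducible discovery rate. A summit was kept when it fell inside the span of a protein-coding transcript and in no protein-coding exon. It also had to lie outside every promoter window, which took in 1000 bp before and 250 bp after the 5' end of any protein-coding transcript, and more than 200 bp from any tRNA gene. Within that list, position alone decided membership. Entry to the list was decided by the authors, on signal and on the likeness of ranks between lists, so neither is free of the choice of peaks. It gave 391 intron peaks among the 2927 peaks of that list, or 18.4% of the 2123 autosomal peaks away from tRNA genes. The others of those peaks were 1028 in promoter windows, 547 between genes and 157 in exons. The same rule found 84 further peaks on the X chromosome, which are not described.

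The peaks come from ChIP-seq, in which chromatin is immunoprecipitated and its DNA sequenced, on whole Caenorhabditis elegans larvae of strain RW12203 at the L4 stage, aged 48 hours and synchronised as starved L1 larvae after bleaching. In this strain a TY1, EGFP and 3xFLAG tag was inserted by CRISPR at ctbp-1, which is on X, and an antibody against GFP was used. All animals of the series carry the tagged allele st12203, there were 2 biological replicates in this single group, and no untagged strain or second condition was analysed here. Whole animals were used, so a peak does not say in which tissue the site was occupied.

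CTBP-1 is the worm member of the C-terminal binding protein family, corepressors that are brought to DNA by sequence-specific transcription factors and that recruit histone-modifying enzymes. Most worm introns are very short, and the few long ones can hold enhancers, promoters of internal transcripts and genes for small noncoding RNAs. Small nucleolar RNAs (snoRNAs) guide the modification of ribosomal RNA, and many worm snoRNA genes lie inside introns of protein-coding genes. GAGA repeats are bound by GAGA factor in Drosophila. The B box is part of the internal promoter that RNA polymerase III uses at tRNA genes and at some other small RNA genes.

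Sequences reaching 75 bp to either side of 10 summits are printed to show the kinds of site found in introns. They were read from the plus strand of the RefSeq sequence of WBcel235, which has the coordinates of ce11. Capitals mark matches, on either strand, to 3 words. The GAGA repeat word is GAGAGA, which reads TCTCTC on the other strand. A longer word is GACGCAG, which reads CTGCGTC when reversed. The B box core was searched only as GTTCGA, which reads TCGAAC when reversed. Other forms of the B box were not marked or counted. The summit is the middle base of each. The first is the strongest intron peak, in mdt-26, a Mediator complex subunit gene, which holds 1 GAGAGA.
mdt-26, chrII:5661743-5661893: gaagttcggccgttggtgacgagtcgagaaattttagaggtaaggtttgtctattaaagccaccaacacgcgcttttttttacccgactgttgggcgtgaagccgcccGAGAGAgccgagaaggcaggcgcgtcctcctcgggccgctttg
The next 3 lie at annotated noncoding genes or a pseudogene inside an intron. They are in frm-7, a FERM domain gene, at a snoRNA gene, in cutl-18, a cuticlin-like gene, beside a snoRNA gene, and in unc-104, the kinesin of synaptic vesicle transport, at an annotated pseudogene.
frm-7, chrV:12303552-12303702: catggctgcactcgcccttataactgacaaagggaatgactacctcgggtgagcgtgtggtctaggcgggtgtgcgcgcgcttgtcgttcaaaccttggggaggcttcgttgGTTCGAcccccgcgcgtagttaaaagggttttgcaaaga
cutl-18, chrV:11314139-11314289: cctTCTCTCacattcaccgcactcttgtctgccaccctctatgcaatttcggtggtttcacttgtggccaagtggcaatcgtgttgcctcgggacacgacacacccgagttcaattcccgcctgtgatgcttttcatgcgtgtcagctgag
unc-104, chrII:7001585-7001735: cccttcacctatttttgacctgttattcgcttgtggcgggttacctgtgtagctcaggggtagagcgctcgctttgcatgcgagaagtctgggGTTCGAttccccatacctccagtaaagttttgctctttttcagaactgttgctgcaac
In daf-14, a Smad gene of the dauer pathway, the window holds 14 overlapping or separate GAGAGA matches, most of them in 1 long run, and in mpk-1, the ERK kinase gene, it holds 4 that are spread over the window.
daf-14, chrIV:10252446-10252596: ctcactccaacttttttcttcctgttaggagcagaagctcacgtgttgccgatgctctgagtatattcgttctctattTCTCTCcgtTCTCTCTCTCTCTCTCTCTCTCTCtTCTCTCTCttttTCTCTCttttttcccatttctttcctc
mpk-1, chrIII:4223821-4223971: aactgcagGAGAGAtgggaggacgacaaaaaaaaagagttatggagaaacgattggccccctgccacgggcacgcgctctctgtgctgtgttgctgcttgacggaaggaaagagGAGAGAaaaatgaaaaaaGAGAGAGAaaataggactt
In 2 peaks of the same intron of pqn-41, a gene for a glutamine-rich protein, GACGCAG stands beside GAGAGA runs, and in max-2, a PAK kinase gene, 2 copies of GACGCAG face each other in inverted flanks.
pqn-41, chrIII:1925319-1925469: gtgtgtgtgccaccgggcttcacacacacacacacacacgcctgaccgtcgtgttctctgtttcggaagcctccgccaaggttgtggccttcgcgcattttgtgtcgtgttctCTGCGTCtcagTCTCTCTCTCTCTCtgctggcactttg
pqn-41, chrIII:1926532-1926682: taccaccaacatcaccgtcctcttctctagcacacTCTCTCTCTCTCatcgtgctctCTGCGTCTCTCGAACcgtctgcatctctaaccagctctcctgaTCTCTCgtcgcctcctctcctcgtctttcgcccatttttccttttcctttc
max-2, chrII:13016519-13016669: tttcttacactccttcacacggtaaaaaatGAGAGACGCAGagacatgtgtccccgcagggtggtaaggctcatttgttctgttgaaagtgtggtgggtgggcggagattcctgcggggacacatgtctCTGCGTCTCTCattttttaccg
The last is the strongest peak in zfp-1, a homologue of the chromatin factor AF10, where none of the 3 words occurs.
zfp-1, chrIII:8795743-8795893: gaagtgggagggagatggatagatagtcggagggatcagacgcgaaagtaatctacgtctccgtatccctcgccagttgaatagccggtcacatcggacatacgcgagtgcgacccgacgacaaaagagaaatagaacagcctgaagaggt

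Signal values are the authors' own, one for each peak, and are used here to describe and rank peaks. They ran from 2.11 to 443.1 over the intron peaks, with quartiles of 66.8 and 116.4. The median was 83.6, against 85.3 for promoter peaks (95% interval of the median 83.3 to 87.9), 85.2 for peaks between genes (81.3 to 89.2) and 66.5 for exon peaks (63.98 to 68.9). Intervals on shares are 95% Wilson intervals, and all intervals cover counting error over peaks only and treat neighbouring peaks as independent, which they are not. The intron median lies inside the intervals of the promoter peaks and the peaks between genes and above that of the exon peaks, and no difference between classes was tested. The strongest promoter peak reached 832.3 and the strongest peak between genes 576.9, both above the top intron peak. Peaks at the low end mostly adjoined a stronger one. Of the 32 intron peaks with a signal under 50, 27 overlapped a stronger peak of the same list. In all, 31 intron peaks (7.93%) overlapped a stronger peak, against 7.44% of all 2123 autosomal peaks away from tRNA genes. These 31 had a median signal of 15.9, and the other 360 had a median of 85.0 and none under 25.8. The weakest, at 2.11, was one of these 31 and lies in ncl-1.

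**Figure D1:**
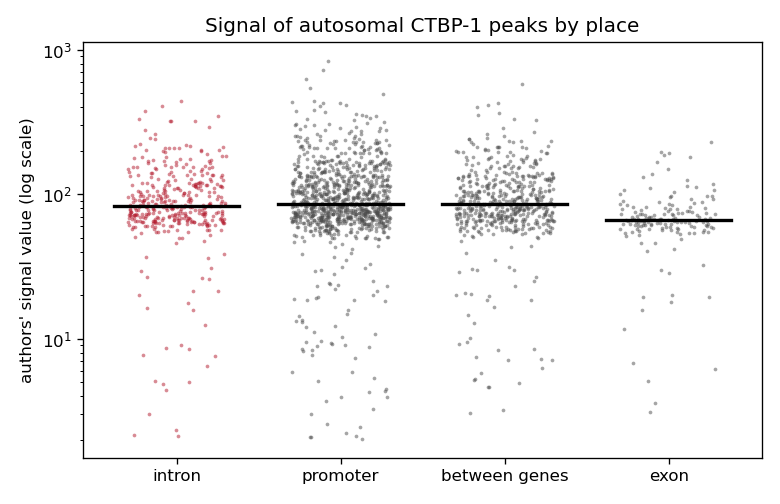
Each point is 1 peak, placed by its class on the horizontal axis and by the authors' signal value, in their units, on a log vertical axis, with a black bar at the class median. The median of intron peaks (83.6) is near those of promoter peaks (85.3) and peaks between genes (85.2), whose strongest peaks reach higher, and each class has a thin tail of low values.

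The mdt-26 peak led the intron peaks, with a series-level signal of 443.1 and values of 201.9 in replicate 1 and 219.1 in replicate 2. Its summit lies in intron 2, at chrII:5661818-5661818, 637 bp from the nearest 5' end. No noncoding gene is annotated within 200 bp of it, and unannotated transcripts were not looked for. The frm-7 peak followed with 408.4, where replicate 1 gave 196.1 and replicate 2 gave 206.2. In ints-8, a gene of the Integrator complex that processes small nuclear RNAs, a peak of 349.0 sat on rpr-1, the RNA component of ribonuclease P. Its replicates gave 160.7 and 184.7. A peak of 319.4 in ppfr-1, a regulatory subunit gene of protein phosphatase 4, sat on an antisense RNA gene, with 155.6 in replicate 1 and 173.9 in replicate 2. The summit in Y111B2A.12 had 291.5 in the series-level list, with 132.3 and 154.5 in the replicates. Signal in the 2 replicates was close for each of these 5 peaks, and replicate 2 was the higher in all 5.

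Among the next strongest, the zfp-1 peak printed above had 277.0, with 137.2 in replicate 1 and 135.8 in replicate 2. In daf-5, the Sno/Ski gene of the dauer TGF-beta pathway, the strongest of 3 intron peaks had 245.7, with 111.6 and 116.7 in the replicates, inside a first intron of 14446 bp. The peak in mef-2, a MADS-box transcription factor gene, had 218.5. Here the replicates differed more, with 83.7 in replicate 1 and 129.9 in replicate 2. The gei-4 peak was higher in replicate 1, with 134.5 in replicate 1, 70.9 in replicate 2 and 214.4 in the series-level list. A peak in intron 2 of cmk-1, the calcium/calmodulin-dependent kinase I gene, had 208.6, with 103.4 and 101.4. The other hosts among the 25 strongest were T28F4.1, at an ncRNA gene (329.2), W06H8.6 (261.3) and epg-9, an autophagy gene (202.3), beside pqn-41 and further peaks of ppfr-1 and zfp-1. The remaining 8 of the 25 lay near small noncoding genes and are given with them.

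Replicates shared the strong intron peaks more often than the weak ones. Of the 391, 122 (31.2%, 95% interval 26.8 to 35.96) overlapped a peak in the thresholded list of each replicate by at least 1 bp. The share over all 2123 autosomal peaks away from tRNA genes was 33.8%, so intron peaks lay near it. Promoter peaks had 37.8%, peaks between genes 33.8% and exon peaks 13.4%. A further 51 intron peaks overlapped a thresholded peak of replicate 1 alone, 65 of replicate 2 alone, and 153 (39.1%) of neither. Among the 130 strongest intron peaks, with signals of 102.5 to 443.1, 99 (76.2%) were shared by both thresholded lists. That number was 14 (10.8%) for the next 130 and 9 (6.87%) for the 131 weakest. The series-level list draws on the same replicates, so its signal and their overlap are not independent.

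A ranked peak of both replicates overlapped 386 of the 391 intron peaks (98.7%), against 98.4% of all 2123 autosomal peaks away from tRNA genes, so this is no feature of introns. The summits of the ranked peaks were within 100 bp of each other for 343 (88.9%), at a median of 30.5 bp. The median signal of these 386 was 43.7 in replicate 1 and 43.5 in replicate 2. Replicate 2 was higher at 211 peaks and replicate 1 at 175. The log2 ratio of replicate 2 to replicate 1 had a median of 0.05 and an SD of 0.74. Across the 386 peaks, Spearman's rank correlation was 0.543 and Pearson's r of the log2 values was 0.544, given as a description over peaks of the same 2 libraries. In 17 cases in replicate 1 and 16 in replicate 2, 1 ranked peak stood against more than 1 intron peak, so some of these values are shared.

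The largest rank differences were at 3 peaks, and in 2 of them the difference comes from how ranked peaks were paired. In saeg-1, a peak of 7.77 overlaps one of 154.9, and 1 ranked peak of replicate 1 (75.8) stood against both. In replicate 2 the weak saeg-1 peak had a ranked peak of its own, of 3.14. In glb-25, a globin gene, a peak of 2.36 overlaps one of 131.2, and both were paired with 1 ranked peak of replicate 2 (77.0). In replicate 1 the weak glb-25 peak had 7.66. These 2 cases are therefore no measure of a difference between replicates. In syd-1, a gene of presynaptic assembly, the values were 74.6 in replicate 1 and 27.3 in replicate 2, and the series-level signal was 116.7. The syd-1 peak passed the threshold in replicate 1 but missed it in replicate 2.

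**Figure D2:**
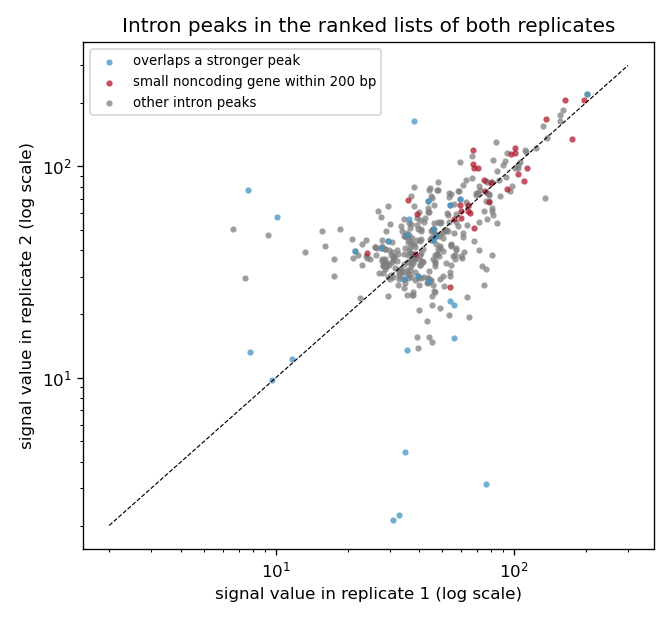
Each point is 1 of the 386 intron peaks present in the ranked lists of both replicates, with the signal value in replicate 1 across and in replicate 2 upward, both on log axes, and the dashed line marks equal values. Peaks near small noncoding genes (red) sit toward the upper right, near the line, and the weak saeg-1 and glb-25 peaks, which took 1 replicate's value from a stronger neighbour they overlap (blue), are among those far from it.

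Intron peaks lay mostly in long introns. The median host intron was 3635 bp (interval 3058 to 4047), with a range of 43 to 21230 bp. The median over the 90275 distinct autosomal introns was 70 bp. Long introns offer more bases that meet the rule, and with each intron weighted by those bases the median was 994 bp. Introns of at least 2000 bp held 265 peaks (67.8%, interval 62.99 to 72.2), against 29.7% of the 22163323 bases that meet the rule. Introns above 5000 bp held 145 peaks (37.1%), against 13.6% of the bases. At the other end, introns of up to 100 bp held 3 peaks (0.767%), against 7.61% of the bases.

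**Figure D3:**
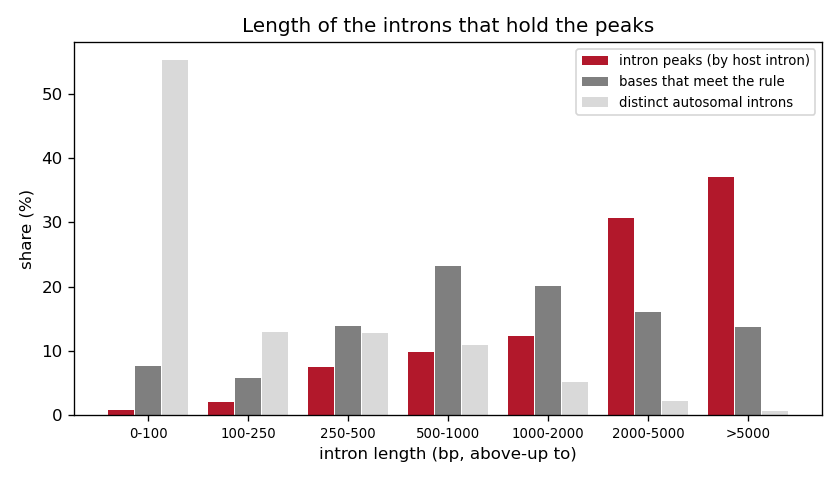
Bars give the percentage of intron peaks by the length of their host intron (red), of bases that meet the rule (dark grey) and of distinct autosomal introns (light grey), in 7 length classes in bp. Intron peaks are most frequent above 5000 bp (37.1%, against 13.6% of bases), while introns of up to 100 bp are 55.3% of introns and hold 0.767% of the peaks.

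Within their introns most peaks lay deep. The median distance to the nearer splice site was 894 bp (interval 756 to 1070), against 221 bp for bases that meet the rule. In all, 37 peaks (9.46%) lay within 100 bp of a splice site, where 30.7% of the bases are. The leading peaks, in mdt-26 and frm-7, were among these, at 37 bp and 28 bp in introns of 386 bp and 267 bp. Long introns place more bases far from splice sites, and the length of the intron and the distance were not separated here. Counts toward either end were similar, with 210 of 391 (53.7%, interval 48.8 to 58.6) nearer to the 5' splice site. First introns held 29.7% of the peaks (interval 25.4 to 34.4), against 19.5% of the bases. Second introns held 68 (17.4%), against 15.9%, and later introns held 207 (52.9%), against 64.6%. Intron number was not separated from intron length either. The median distance to the nearest protein-coding 5' end was 1856 bp (interval 1655 to 1991), against 1690 bp for the bases. Introns of more than 1 gene held 7 of the summits.

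The boundaries of the rule were approached closely. The nearest member downstream of a 5' end was 257 bp from that of F55C7.2, inside unc-73, with a signal of 149.2. The nearest upstream was 1010 bp from the 5' end of wac-1.1, with 64.5. Just outside, a summit in ercc-1 at 223 bp downstream had 5.36, and one 1000 bp upstream of pqn-87 had 103.8. The promoter windows took in 193 summits that lie inside an intron. For tRNA genes, the closest member was 288 bp away (in C13B4.1, signal 4.41), and the farthest intron summit removed was 146 bp away (in swt-5, 11.1). That criterion removed 71 intron summits.

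Some of the strongest intron peaks lay beside small noncoding genes. The summit was within 200 bp of a snoRNA gene in 28 peaks (7.16%, interval 5.00 to 10.2), where 0.206% of the bases that meet the rule lie so close. It was that near a small nuclear RNA (snRNA) gene in 4 peaks (1.02%), against 0.0882% of the bases. None lay near a microRNA gene, and 0 of 391 allows up to 0.973% (upper end of the 95% Wilson interval), against 0.0922% of bases. These shares were not counted over promoter peaks or peaks between genes. Closeness to such genes is therefore not shown to be particular to intron peaks. The 32 peaks near a snoRNA or snRNA gene had signals of 61.8 to 408.4 and a median of 159.4. The other 359, which include peaks at genes annotated ncRNA such as rpr-1, had a median of 80.8. Of the 32, 26 (81.3%) were in the thresholded lists of both replicates, against 96 of the other 359 (26.7%). Signal was not separated from this contrast. Of the 32, 28 were among the 130 strongest intron peaks, and 99 (76.2%) of those 130 were in both thresholded lists. The 32 made up 9 of the 25 strongest intron peaks. Their median GC content was 51.99%, against 46.4% for the other 359, and its part in the signal was not tested.

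In pxn-1, the peroxidasin gene, the peak 5 bp from a snoRNA gene had 379.3, with replicate values of 163.2 and 204.7. The cutl-18 peak, 44 bp from a snoRNA gene, had 321.0, with 175.0 and 134.4 in the replicates. In dhc-4, a dynein heavy chain gene, the peak 23 bp from an annotated snRNA gene had 321.0, with 135.3 and 167.2. These 3 were therefore high in both replicates, with no common direction between them. Further members among the 25 strongest were in twk-5, a potassium channel gene (222.5), Y38F2AR.12 (216.5), F58G1.7 (210.5, on an annotated snRNA), Y43F8C.7 (208.9) and pdl-1 (208.8). The lowest of the 32, at 61.8, was beside a snoRNA gene in ckk-1, the calcium/calmodulin-dependent kinase kinase gene. The snRNA peaks in dhc-4, C28A5.6 and mpc-1 lie at loci to which the annotation gives 1 shared name, and reads from close copies can be hard to place. In BLAST searches of the genome with the window of each summit, 37 of all 391 intron peaks (9.46%) had a copy elsewhere of at least 90% identity over at least 80% of the window. Of the 37, 2, in C28A5.6 and mpc-1, were near small noncoding genes and 1, in cmk-1, was among the 25 strongest. The dhc-4 window had no copy by this measure. The most copied window, in Y32F6A.5, had 644 such alignments, which were not merged into separate places. The share with a copy was counted for intron peaks only. How the authors treated reads of several places is not given in the sources used here.

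Genes annotated ncRNA, a broad class of transcripts with no protein product, were near 77 intron peaks (19.7%, interval 16.1 to 23.9), against 2.77% of the bases. Leaving out peaks that were also near a small noncoding gene, 67 had a median signal of 90.6, and 24 of them (35.8%) were shared by both thresholded lists. The ints-8 and T28F4.1 peaks were among these. Antisense RNA genes were near 6 peaks (1.53%) and annotated pseudogenes near 2 (0.512%), against 0.169% and 0.749% of the bases. For these classes of gene too, no share over other peaks was counted. The unc-104 peak, on a pseudogene, had 169.3, with 86.3 in replicate 1 and 86.1 in replicate 2. The tRNA criterion used only genes annotated tRNA, so a pseudogene of any origin did not exclude a summit. The 286 peaks with no annotated noncoding gene or pseudogene within 200 bp had a median of 78.5, and 71 (24.8%) were shared. They held 11 of the 25 strongest, mdt-26 and zfp-1 included. This count rests on the annotation, and whether unannotated small RNA genes lie at any of them was not tested.

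GAGAGA repeats recurred at the intron summits. The word occurred within 75 bp of the summit in 156 of 391 (39.9%, interval 35.2 to 44.8), against 32.8% of all 2123 autosomal peaks away from tRNA genes. Peaks between genes had 40.6%, promoter peaks 28.7% and exon peaks 14.6%. The share in windows of the same width centred 400 bp to either side of the intron summits was 9.21% of 782. It was 5.98% of 118680 windows tiled over the bases that meet the rule. All 2080 words of 6 letters, each counted with its reverse complement, were ranked by their excess over the tiled windows in percentage points. GAGAGA ranked first by this measure, which favours common words, and ratios were not ranked. AGAGAG, which overlaps it, came next with 32.5% of the peaks, against 5.02% of the tiled windows. CACACA, another dinucleotide repeat, ranked 14, with 21.99% against 5.73%. The printed daf-14, mpk-1 and pqn-41 sequences show both forms, a long run and scattered short ones.

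GACGCAG, a word taken up after the word counts were seen, occurred in 38 intron peaks (9.72%, interval 7.16 to 13.1). It was in 0.895% of the flanking windows and 1.26% of the tiled windows. It is not confined to introns, since 14.6% of peaks between genes, 11.6% of promoter peaks and 4.46% of exon peaks held it. The share over all autosomal peaks away from tRNA genes was 11.5%, inside the interval of the intron share, so GACGCAG is no feature of intron peaks. Both words went with signal. GAGAGA was in 65 of the 130 strongest intron peaks, in 54 (41.5%) of the next 130 and in 37 (28.2%) of the 131 weakest. For GACGCAG these counts were 22 (16.9%), 11 (8.46%) and 5 (3.82%). Base composition moved with signal too, with a median GC content of 50.3% in the strongest, 45.4% in the next and 43.7% in the weakest set. The 2 words hold more G and C than the average intron, and the part of base composition in these counts was not tested.

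Several other words were also more frequent in the intron peaks than in the flanks. For CACCTG and the forkhead site, the interval of the intron share included the flank share. Shares of the KLF and SP site, E-box and B box core were near those of all 2123 autosomal peaks away from tRNA genes. The KLF and SP site (CCACCC or CCGCCC) was in 60 intron peaks (15.3%), against 6.14% of flanks, 4.72% of tiled windows and 13.9% of all those peaks. The E-box CACGTG was in 24 (6.14%), against 2.69% of flanks and 5.09% of all those peaks. The B box core, as GTTCGA alone, was in 29 (7.42%), against 4.09% of flanks and 6.26% of all those peaks. Of those 29, 9 were among the 32 peaks near small noncoding genes. The E2F and DREAM site, searched as TTCCCGC and in addition as TTCGCGC, then also as TTGCCGC and finally as TTGGCGC, was in 30 (7.67%, interval 5.43 to 10.7). Its share was 4.604% in the flanks, 6.66% in tiled windows, 12.3% in promoter peaks and 10.4% in all those peaks. CACCTG is the E-box bound by ZEB repressors, which recruit CtBP in other animals. It was in 10 (2.56%, interval 1.40 to 4.64), against 4.22% of flanks, 2.37% of tiled windows and 2.87% of all those peaks. The forkhead site GTAAACA was in 9 (2.30%, interval 1.22 to 4.32), against 1.53% of flanks and 1.51% of all those peaks.

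AT-rich words were scarcer at the summits than beside them. GATA sites (AGATAA or TGATAA) were in 36 intron peaks (9.21%), against 19.7% of flanks and 11.02% of all 2123 peaks. SOX sites (AACAAT) were in 23 (5.88%), against 14.5% of flanks and 8.90% of all 2123 peaks. The splice acceptor word TTTCAG was in 41 (10.5%), against 25.1% of flanks, 31.5% of tiled windows and 13.9% of all 2123 peaks. AAAAAA was in 141 (36.1%), against 57.3% of flanks and 37.02% of all 2123 peaks. The mean GC content of the summit windows was 46.6%, against 31.96% for all bases that meet the rule. Promoter peaks had a median GC of 45.7%, beside 47.02% for intron peaks, so this composition was shared with other classes. Lower-case bases, which mark repeats and low-complexity sequence in the reference, made up 21.3% of the windows, against 54.8% of the bases that meet the rule.

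**Figure D4:**
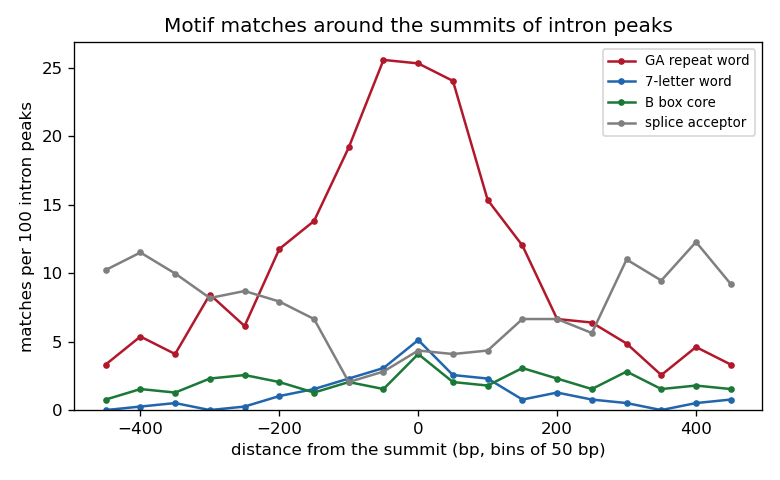
Lines give motif matches per 100 intron peaks on both strands in bins of 50 bp, by distance from the summit in bp, with overlapping matches in a run counted separately. Matches to GAGAGA (GA repeat word) reach 25.6 per 100 peaks in the bin at -50 bp and 3.32 in the outermost bins, the 7-letter word GACGCAG reaches 5.12 at the summit, and the splice acceptor word is lowest near the summit.

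The intron peaks fell in 277 host genes, which are 1.95% of the 14176 autosomal genes with bases that meet the rule. One peak was found in 215 of them, 2 in 33, and 3 or more in 29. Those 29 genes held 110 peaks (28.1%). Hosts were long genes, with a median span of 9467 bp, against 2291 bp for all genes with such bases. Of the hosts, 76 (27.4%, interval 22.5 to 32.97) also had a promoter peak, against 918 (6.48%) of the 14176. Gene length and the number of annotated 5' ends, and so of promoter windows per gene, were not separated from this. The median distance from an intron peak to the nearest other was 21554 bp, while 28.6% had another within 2000 bp. Part of this closeness is overlap, since 51 intron peaks (13.04%) overlapped another intron peak, and merging such peaks leaves 365 sites.

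The gene ppfr-1 held 9 intron peaks in 2 introns, more than any other gene, and no promoter peak. Of these, 3 overlapped a stronger one, and the 9 merge into 6 sites. Their signals were 70.7, 66.9, 319.4, 36.2, 89.7, 204.0, 109.9, 56.4 and 165.2, at 6.08 to 16.8 kb from the 5' end of the gene. The first 8 of these summits fell between 6.08 and 10.5 kb, and the last stood apart. In zfp-1, which also had a promoter peak, 5 intron peaks had 115.1, 277.0, 203.0, 175.9 and 72.2. In pqn-41, the 4 peaks had 167.9, 211.5, 239.9 and 200.3 and lay 15.5 to 20.6 kb from the 5' end in 1 intron of 10372 bp. All 4 pqn-41 peaks were above the upper quartile of the intron peaks. The B-box gene ncl-1, a regulator of nucleolar size, had 6 peaks of 2.11 to 119.99. The chaperonin gene cct-5 had 5 in 1 intron of 6134 bp, of 5.03 to 84.7, and the multi-PDZ gene mpz-1 had 5, of 21.3 to 118.7, in 4 introns. The SWI/SNF subunit gene let-526 had 5 of 71.5 to 173.2 and a promoter peak. Merged, the peaks of cct-5 make 3 sites, those of mpz-1 and let-526 make 4 each, and those of ncl-1 and zfp-1 make 5 each.

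Genes with 4 intron peaks included regulators of transcription. The FOXO gene daf-16 had peaks of 84.7, 67.2, 74.8 and 144.6, and the TFEB gene hlh-30 had 21.5, 92.2, 75.6 and 139.5, and each also had a promoter peak. The Period homologue lin-42, of the developmental clock, had peaks of 149.7, 8.67, 59.9 and 114.8 and no promoter peak. The DNA repair gene ercc-1 had 135.2, 110.5, 109.4 and 57.7, and K01F9.2 had 174.0, 15.9, 116.4 and 56.5. In each of hlh-30, lin-42 and K01F9.2 the weakest peak overlapped a stronger one, which leaves 3 merged sites per gene. Genes with 3 included the kinase genes cmk-1, ckk-1, kin-1, mnk-1 and unc-43, the neuronal genes cha-1, ida-1, nca-2 and pgal-1, and daf-5, emb-4 and the Groucho-related lsy-22. The others were C17E4.6, F57A8.1, R107.5, Y41E3.7 and Y43F8B.2. Merging leaves 2 sites in C17E4.6, R107.5, emb-4, lsy-22, mnk-1, nca-2 and pgal-1. Over these 17 genes, the strongest peak ranged from 66.3 in nca-2 to 245.7 in daf-5. In emb-4, 2 of the 3 windows had 177 and 113 such alignments elsewhere in the genome, by the BLAST measure above.

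**Figure D5:**
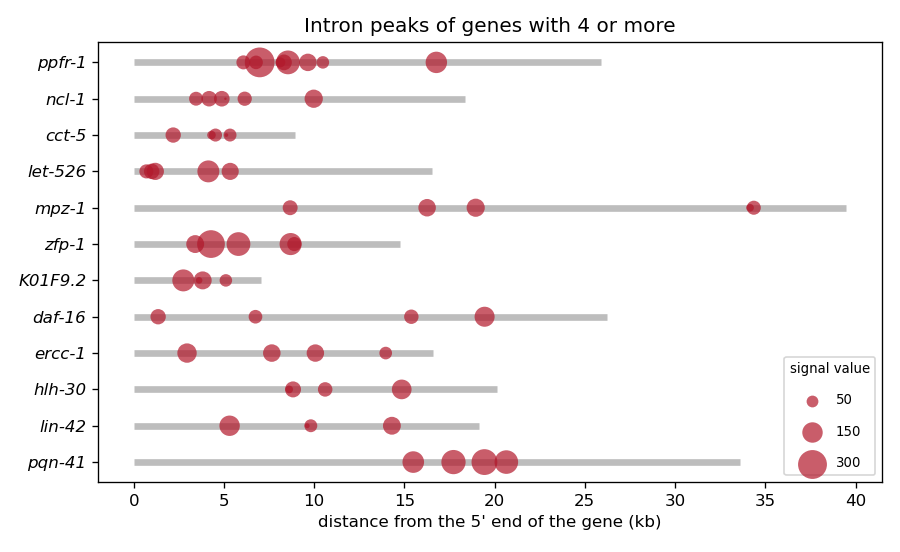
Each grey bar is 1 of the 12 genes with 4 or more intron peaks, drawn from its 5' end in kb, and each red circle is an intron peak whose area grows with the signal value. The 9 peaks of ppfr-1 gather between 6.08 and 16.8 kb, and the 4 of pqn-41 between 15.5 and 20.6 kb.

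Host genes were also read by function, with 6 gene lists. Signalling receptors and kinases had 22 hosts of 142 genes (15.5%, interval 10.5 to 22.3) with 31 peaks, against 1.95% of all 14176 genes. Synaptic release genes had 8 of 59 (13.6%, interval 7.03 to 24.5), axon guidance and cell adhesion genes 9 of 73 (12.3%), and cytoskeleton and muscle genes 8 of 89 (8.99%). Transcription factors had 15 of 440 (3.41%) and ion channels 3 of 212 (1.42%). These genes have more intron than most, with list medians of 896 to 5169 bp that meet the rule, against 646 bp over all genes. Per megabase of such sequence, the counts were 56.2 peaks for synaptic release genes, 38.4 for signalling, 26.1 for transcription factors, 22.7 for cytoskeleton and muscle, 20.2 for guidance and adhesion and 7.09 for ion channels. All genes together had 17.6 per megabase. By this measure the guidance and adhesion genes were near the rate of all genes, and the ion channel genes, with 5 peaks, were below it. The synaptic release rate rests on 13 peaks in 231257 bp. Peaks were denser in long introns, since introns of at least 2000 bp held 67.8% of the intron peaks and 29.7% of the bases. Intron length was not separated from list membership in these rates, and no difference between lists was tested.

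Among signalling hosts after cmk-1, the mpk-1 peak had 184.4, with 81.8 in replicate 1 and 106.8 in replicate 2, and kin-1, the protein kinase A gene, had 152.6, with 70.4 and 74.9. The peak in unc-73, the Trio homologue of growth cone guidance, had 149.2, with 69.3 and 73.5. Among synaptic release genes, unc-41, a stonin, had 159.8, with 67.4 in replicate 1 and 102.7 in replicate 2, and lay 73 bp from a snoRNA gene. The ida-1 gene, of dense-core vesicles, had 150.7, with 71.9 and 77.5. Guidance and adhesion hosts after unc-73 were weaker, with 91.2 in casy-1, 77.3 in cdh-1 and 72.6 in unc-44. The casy-1 peak had 26.7 in replicate 1 and 61.8 in replicate 2, so it was higher in replicate 2.

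The kinesin gene klp-6 led the cytoskeleton and muscle list with 180.03, with 84.8 and 94.8 in the replicates. It was followed by the beta-spectrin gene unc-70 with 118.2, whose summit was 38 bp from a snoRNA gene, the tubulin gene tba-7 with 89.7 and the tropomyosin gene lev-11 with 84.4. The daf-14 peak was second to mef-2 among transcription factors, with 196.0, and 89.6 in replicate 1 and 101.2 in replicate 2. Of the ion channel hosts, twk-5 had its peak 76 bp from a snoRNA gene, and nca-2 and the GABA receptor gene unc-49 had 66.3 and 64.1. Named hosts of several lists thus had their peak at a small noncoding gene, namely twk-5, unc-41 and unc-70.

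Intron peaks were spread unevenly over the autosomes. Chromosome III had 97, I had 87, II had 83, IV had 71 and V had 53. Per megabase that meets the rule, II had 22.4 and III 22.1, I had 17.7, IV 15.8 and V 11.4. Chromosome V held 13.6% of the intron peaks and 20.95% of the bases that meet the rule. Among all autosomal peaks away from tRNA genes, introns took 13.4% on V and 18.3 to 21.3% on the other chromosomes. Thus V was low by both measures, and differences between chromosomes were not tested.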

How the data were processed

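Chromatin from 2 biological replicates of whole L4 larvae was immunoprecipitated after sonication, per the labels. The labels do not say whether replicates came from separate cultures. The authors deposited peak lists on ce11, each peak with a signal value of their own, and each summit as another number, an offset from the peak's start. For the aligner, the peak caller and their versions, nothing is given in the sources used here. Depth is unknown and no interval covers it. The p-value column holds no values and was not used.

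Summits were placed on Ensembl release 115 genes of WBcel235, counted from 1. A replicate value is the signal of the overlapping ranked peak with the nearest summit. Replicates enter 1 series-level list, so no test over samples was made. Motifs were searched on both strands within 75 bp of the summit. Python 3.11.15, NumPy 2.4.6, SciPy 1.17.1, matplotlib 3.10.9 and BLAST+ 2.17.0 were used. The placement rules met 26 of 26 checks on a made-up chromosome.

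The intron peaks, gene lists and motifs were chosen with earlier results of these data known. The B box core, GACGCAG and the setting without peaks that overlap a stronger one were added after seeing the data. Genes named are hosts of the 25 strongest peaks, hosts of 3 or more, up to 4 hosts for each gene list, the 3 largest rank differences between replicates and the peaks at the rule's boundaries. Sequences printed were chosen after their values were seen, and so were the small noncoding genes named. Alternatives changed the list, the windows, the tRNA and noncoding gene distances and the overlap, and left out each replicate.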

Additional observations from a re-analysis of the deposited data

How the results depend on the processing

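Of 64 alternatives to 8 results, 47 stayed within limits and 17 did not. The limit was 1.5 times for the count of intron peaks and the 95% interval for other values. The count of 391 became 280 with a wider promoter window, 467 with a narrower one and 462 with no summit dropped for a tRNA gene, so it depends on the rule's distances. With the thresholded list of 1 replicate in place of the series-level list, the intron peaks numbered 176 to 196, against 391, and their median signal was 60.3 to 61.0, on another list's scale. In those lists the share in first introns was 24.4 to 30.1%, the median distance to a 5' end 1651.5 to 1794 bp, and the share near small noncoding genes 14.8 to 15.3%, against 8.18%. Overlap with a single replicate's thresholded list was 44.2 to 47.8%. A promoter window of 2000 bp before to 500 bp after the 5' end gave a median distance to a 5' end of 2507.5 bp, and one of 500 bp before to 100 bp after it gave 1526 bp, since the window sets the distance. Counting first introns of any transcript gave 44.2%. Within 50 bp of the summit GAGAGA was in 30.7% of intron peaks, and within 150 bp in 54.99%, as a wider window holds more words. Leaving out peaks near small noncoding genes, 26.7% were shared by both replicates, and 1.28% of summits lay inside such a gene. The median host intron length stayed within its limits under all 8 alternatives run on it. No paired analysis was possible because the series holds 1 group. Depth is unknown, so weak peaks missing from a replicate cannot be told apart from sites that were not occupied there.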
